A study of Mus musculus with 12 samples.

Results

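The 49 genes described here are genes of mitosis and of the transition from G2 into mitosis, chosen by symbol from a list, and all 49 were found among the 32285 genes of the count table. They were read in wild-type mouse bone marrow-derived macrophages, which are primary macrophages grown from marrow precursors. The acids were IA, which is itaconic acid, MetSA, which is methylsuccinic acid, and MA, which stands for malonic acid. Each was diluted from a stock of 50 mM to a final 5 mM and left on the cells over 16 h, and the control group, M, had medium without an acid. Every group held 3 libraries of polyadenylated RNA that the labels call biological replicates. The labels do not say whether they came from separate animals, so p-values measure only the spread between these libraries. The same replicate numbers recur in the labels of every group. The main test did not pair libraries by number, and a version that did was run as an alternative.

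IA is the dicarboxylic acid that activated macrophages make from cis-aconitate. MetSA has the same carbon skeleton without the carbon-carbon double bond of IA, and MA is a shorter dicarboxylic acid known as an inhibitor of succinate dehydrogenase. Genes of the G2 and M phases are transcribed late in the cell cycle: the DREAM complex holds them silent in resting cells, and B-Myb and FOXM1 switch them on. Many of their promoters carry the cell cycle genes homology region, called CHR, close to the start site, often with CCAAT boxes upstream. In a culture of bone marrow-derived macrophages only a part of the cells divide, so in bulk RNA a lower level of such a gene in each cycling cell and a smaller number of cycling cells cannot be told apart.

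Library totals ran from 46892488 to 54252486 counts, and 14113 genes passed the filter on low counts, all 49 members among them. Levels are given as CPM, the counts of a gene scaled to a common library size, with library sizes set by TMM, a scaling that assumes most genes do not change. The 10 macrophage markers summed to between 25170 and 33860 CPM in every library, with 25170 to 27480 CPM in M, 26040 to 28840 CPM after IA, 29160 to 31240 CPM after MA and 27350 to 33860 CPM after MetSA. Of these 10, 7 were called higher and none lower after IA and likewise after MetSA, with median log2 fold changes of 0.27 each. After MA 3 were higher and 2 lower. Of all genes, 17.9%, 12.6% and 10.1% were called higher after IA, MetSA and MA, and 17.3%, 8.53% and 10.1% lower. The 6 dendritic cell markers summed to 1.85 to 3.52 CPM in M, 7.36 to 8.23 CPM after IA, 2.94 to 3.86 CPM after MA and 3.34 to 5.39 CPM after MetSA, and 2, 2 and 1 of them were called higher. Over all libraries the summed levels were 56.5 to 100.6 CPM for 8 neutrophil markers, 9.49 to 38.1 CPM for 6 stromal, 2.68 to 6.77 CPM for 6 progenitor and 3.36 to 6.34 CPM for 5 B cell markers. Markers of T and NK cells, erythroid cells, and mast cells and basophils reached at most 0.346, 0.231 and 0.926 CPM, with Cd3g, Ncr1 and Hba-a2 at 0 throughout. The part of these cell types in the results was not tested.

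The promoters of 7 members are shown first because many members, though not all, share a feature that the choice of genes did not use. Each line gives 85 bases before to 25 bases after the start of a RefSeq transcript on GRCm38.p6, read 5′ to 3′ on the strand of the gene. Capitals mark the CHR core, TTTGAA or TTCGAA, and the CCAAT box, on either strand, so that the reverse of the core reads TTCAAA and that of the box reads ATTGG. Cdc20, Top2a, Racgap1, Prc1 and Cenpa have the core near the start, and Ccnb1 and Birc5 do not. Some members with a window are not printed: Cdca8 has the core near the start, and Pttg1, Nuf2, Nusap1 and Ncapd2 do not. The printed lines are examples and do not show how frequent the core is.
Cdc20 (chr4:118437319-118437428, minus strand): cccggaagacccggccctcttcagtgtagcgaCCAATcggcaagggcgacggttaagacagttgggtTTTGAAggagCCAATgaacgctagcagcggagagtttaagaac
Top2a (chr11:99024165-99024274, minus strand): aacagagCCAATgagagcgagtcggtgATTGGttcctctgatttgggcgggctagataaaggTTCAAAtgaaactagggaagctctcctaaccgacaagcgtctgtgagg
Racgap1 (chr15:99651632-99651741, minus strand): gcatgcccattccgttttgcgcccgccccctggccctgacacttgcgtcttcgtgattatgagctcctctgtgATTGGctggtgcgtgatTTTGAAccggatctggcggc
Prc1 (chr7:80294366-80294475, plus strand): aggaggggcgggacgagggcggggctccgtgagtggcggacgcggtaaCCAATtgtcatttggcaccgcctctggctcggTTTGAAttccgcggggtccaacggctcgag
Cenpa (chr5:30666801-30666910, plus strand): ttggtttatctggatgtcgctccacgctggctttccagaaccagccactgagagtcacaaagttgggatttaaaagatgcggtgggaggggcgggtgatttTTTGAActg
Ccnb1 (chr13:100786462-100786571, minus strand): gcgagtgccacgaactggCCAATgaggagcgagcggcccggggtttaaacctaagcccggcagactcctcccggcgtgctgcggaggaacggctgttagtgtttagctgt
Birc5 (chr11:117849152-117849261, plus strand): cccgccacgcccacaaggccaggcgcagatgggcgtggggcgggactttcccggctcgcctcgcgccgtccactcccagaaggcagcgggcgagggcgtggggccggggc

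RefSeq windows from 250 bases before to 50 bases after the start were at hand for 41 of the 49 members. Ccna2, Foxm1, Aurkb, Incenp, Tpx2, Stmn1, Smc4 and Kif20a had none. The CHR core was found in the windows of 30 of the 41 members (73.2%), against 21.7% of 27025 genes with a window. Within 50 bases of the start it was found for 27 of 41 members (65.9%), against 6.1% of all genes and 4.4% of the 10641 tested genes with a window. In the 25 bases that follow the start, 31.7% of members held the core and 1.3% of tested genes did. The CCAAT box stood in 30 of 41 members (73.2%) and in 41.1% of all genes, and core and box stood together in 27 members (65.9%) and 8.6% of all genes. Of the E2F-like letters, TTGGCGC was found in 6 members (14.6%, against 2.8% of all genes and 4.8% of tested genes) and TTCCCGC in 1 member (2.4%, against 5.3%). These are matches of letters on either strand; no test was made and binding was not measured.

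**Figure D1:**
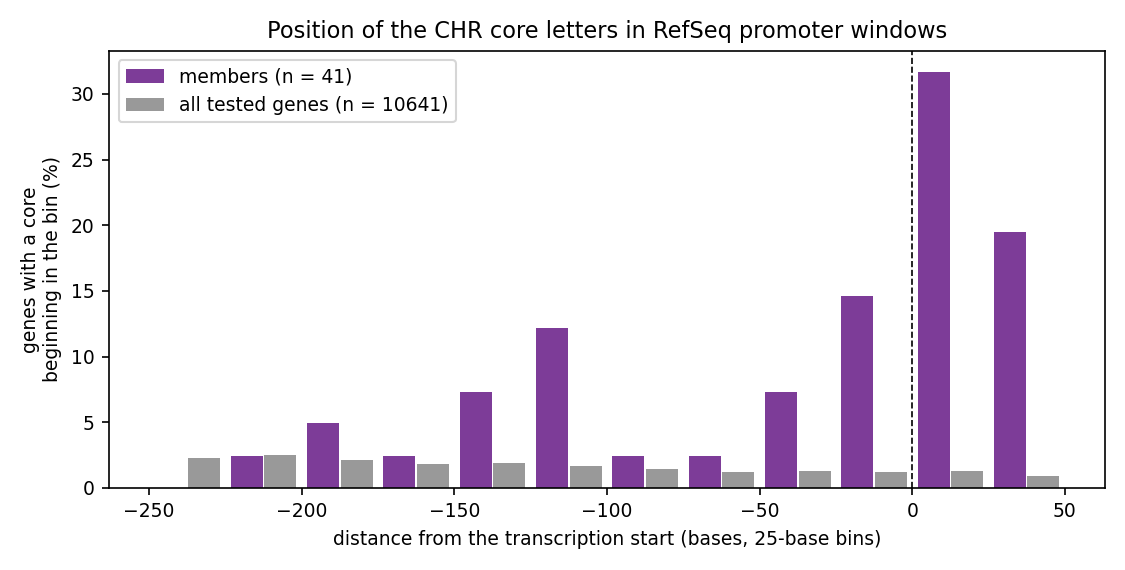
Position of the CHR core (TTTGAA or TTCGAA, either strand) relative to the RefSeq start site, as the percent of genes with a match in each bin of 25 bases, for the 41 members with a window and for 10641 tested genes. Members are most frequent in the bin just after the start, at 31.7%, where tested genes reach 1.3%.

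Members with and without the core near the start had similar medians, and the difference was not tested. After IA, 27 of the 27 members with it were called lower, with a median log2 fold change of -1.12. Of the 14 members without it, 13 were called lower, with a median of -1.03. The share of all tested genes called lower after IA was 17.3%. The member that rose, Pttg1, is among the 14 without it. The RefSeq start used for Pttg1 lies inside the annotated gene (chr11:43425957-43426066 around the start, gene chr11:43420250-43426251). Its window did not reach the annotated start, so the sequence there was not searched. The same holds at least for Cdca8, Cdca3 and Kif4, which are among the 27 with the core, and for Kif2c, which is among the 14 without it. After MetSA the medians were -0.58 with the core and -0.50 without it, and after MA they were -0.36 and -0.33.

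IA lowered nearly the whole set. By the quasi-likelihood test of edgeR, Benjamini-Hochberg adjusted over 14113 genes, 46 of 49 members were called lower than in M at an adjusted p under 0.05, where 17.3% of all tested genes were, and 1 member was called higher, where 17.9% of all genes were. The median log2 fold change of the members was -1.08, against -0.03 over all genes tested, and 43 members were called at least 1.5-fold lower, as were 7.06% of all genes. In 47 members the 3 IA values lay below the 3 M values, which held for 24.2% of all genes.

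MetSA lowered 40 of the 49 members (8.53% of all genes were called lower) and raised 1 (12.6% of all genes), with a median of -0.56 against -0.01 over all genes. Falls of 1.5-fold or more were called in 22 members and in 2.35% of all genes. In 41 members the MetSA values lay wholly below the M values, against 15.6% of all genes. MA lowered 23 members (10.1% of all genes), with a median of -0.35 against -0.02 over all genes, and only 2 of them, Ccna2 and Kif23, fell by 1.5-fold or more (3.38% of all genes). No member was higher after MA by edgeR, by DESeq2, by limma-voom or at an unadjusted p under 0.05, where 10.1% of all genes were called higher. In 36 members the MA values lay below the M values without overlap, against 18.6% of all genes. The count after MA depended on single libraries: it was 15 without M replicate 1 and 11 without MA replicate 2. All of these comparisons share the same 3 M libraries.

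The mean log2 CPM over the 49 members, taken relative to the mean of M, put the libraries in an order. M libraries stood at 0.04, -0.02 and -0.02, MA libraries at -0.31, -0.37 and -0.33, MetSA libraries at -0.54, -0.61 and -0.40, and IA libraries at -1.09, -0.81 and -1.03. The 4 groups did not overlap on this mean, and the smallest gap, 1 MetSA library against 1 MA library, lay between -0.40 and -0.37. In 38 members the group means ran M, MA, MetSA and IA from high to low, and in 6 more MA and MetSA changed places. The call patterns were 20 members lower after all 3 acids, 20 lower after IA and MetSA without a call after MA, 4 lower after IA alone (Ccnb2, Spc25, Nuf2 and Smc2), 1 lower after MA alone (Smc4) and 2 lower after IA and MA (Incenp and Ndc80). Pttg1 and Tpx2 were the 2 members not called lower after any acid, although a replicate block changed this for Tpx2.

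**Figure D2:**
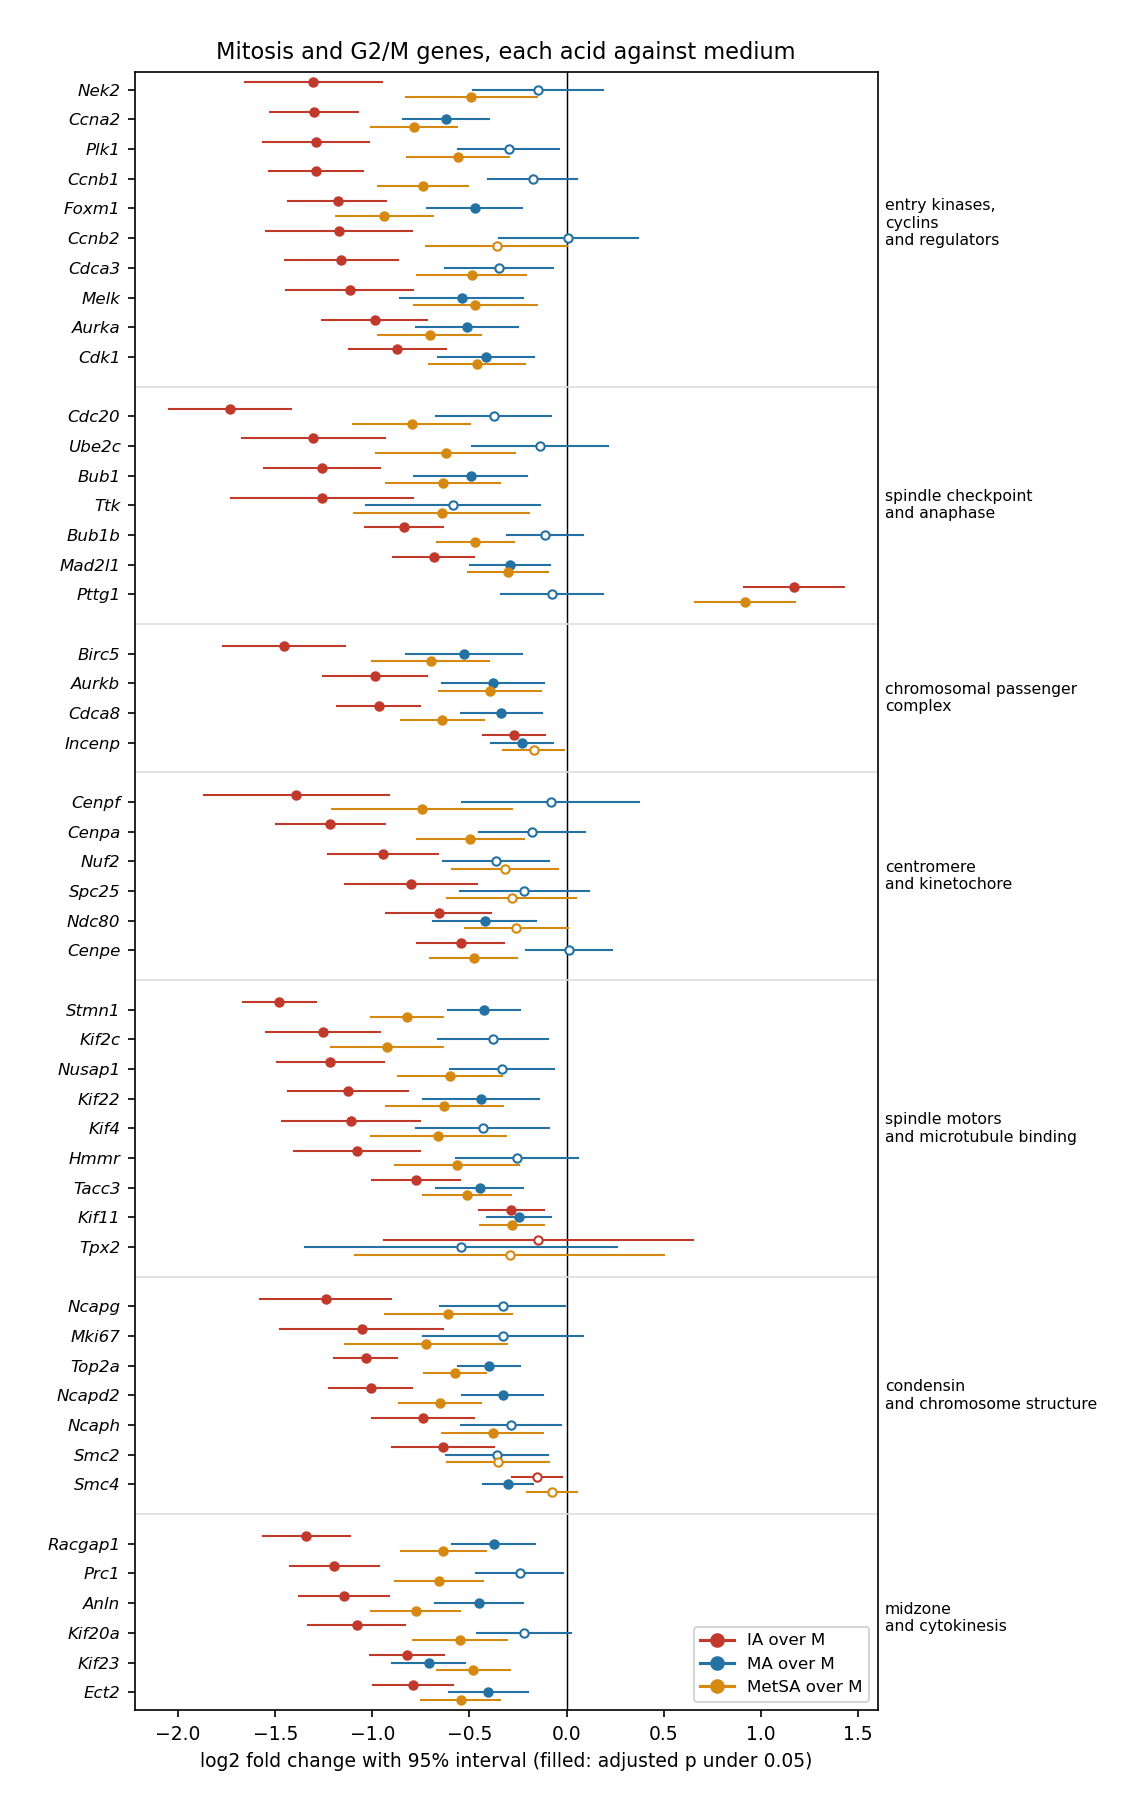
log2 fold change of each of the 49 members against medium, for IA, MA and MetSA, with 95% intervals from the edgeR fit on 3 libraries per group, members ordered within their roles. Filled points passed an adjusted p of 0.05; nearly all lie to the left of 0 with IA outermost, and Pttg1 stands alone on the right after IA and MetSA.

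**Figure D3:**
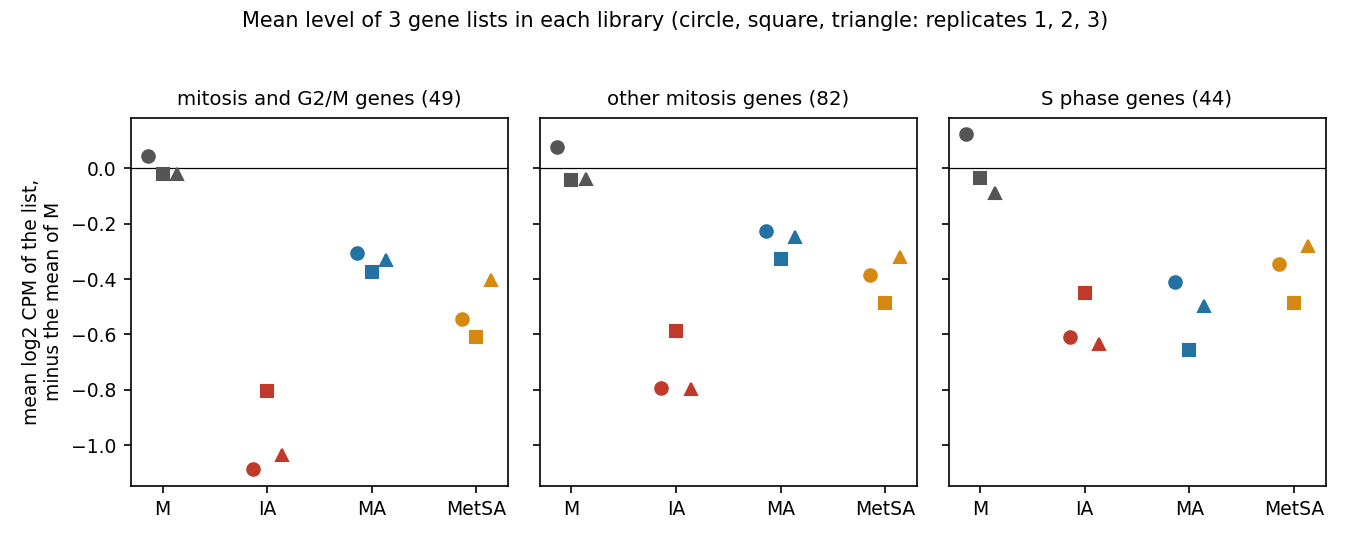
Mean log2 CPM of the gene lists in each of the 12 libraries, relative to the mean of the 3 M libraries, 1 point per library. For the 49 members the IA libraries sit between -1.09 and -0.81, below the MetSA libraries (-0.61 to -0.40) and the MA libraries (-0.37 to -0.31), while for the 44 S phase genes the IA, MA and MetSA libraries overlap.

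Levels between genes were compared per kb of merged exons. In M the most abundant members were Stmn1 at 31.5 CPM per kb, Smc4 at 20.8, Top2a at 12.9, Incenp at 12.2 and Mki67 at 12.0, and the least abundant was Ttk at 1.18. Stmn1 stood at 11.3 CPM per kb after IA, below Smc4 at 18.7. Pttg1 stood at 5.83 CPM per kb in M and at 13.1 after IA, where only Smc4 was higher among the members.

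The cyclins, kinases and regulators of entry into mitosis were all lower after IA: 10 of 10 members, against 17.3% of all genes. Their median log2 fold change was -1.18. After MetSA 9 of 10 were lower (median -0.52) and after MA 5 of 10 (median -0.38), against 8.53% and 10.1% of all genes. With 1 library left out in turn these counts ran from 5 (without MetSA replicate 2) to 10 after MetSA and from 3 (without M replicate 3) to 6 after MA, and the IA count was 10 each time.

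Ccna2 (cyclin A2, chr3:36564865-36572150, ENSMUSG00000027715) is the cyclin that partners CDK2 and then CDK1 through S phase and G2. Its level was 26.4, 24.9 and 23.7 CPM in M and 10.1, 11.7 and 8.73 CPM after IA. After MA it was 18.4, 15.8 and 14.5 CPM and after MetSA 14.6, 13.97 and 15.0 CPM. Every acid library lay below every M library, and the IA libraries lay below all others. Against M the log2 fold change was -1.30 (SE 0.11, adjusted p = 1.68e-08) after IA, -0.62 (SE 0.10, adjusted p = 0.000211) after MA and -0.79 (SE 0.11, adjusted p = 1.71e-05) after MetSA.

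Ccnb1 (cyclin B1, chr13:100778650-100786570, ENSMUSG00000041431) activates CDK1 at the onset of mitosis. It was at 15.8, 16.2 and 14.9 CPM in M, at 6.26, 6.76 and 6.18 CPM after IA, at 14.5, 12.4 and 14.7 CPM after MA and at 8.93, 8.30 and 10.9 CPM after MetSA. The MA values reached almost up to those of M, whereas the IA and MetSA values lay well below both. Ccnb1 fell after IA by 1.29 on the log2 scale (SE 0.12, adjusted p = 3.95e-08) and after MetSA by 0.74 (SE 0.11, adjusted p = 5.96e-05), and its log2 fold change after MA was -0.17 (SE 0.11, adjusted p = 0.309).

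Cdk1, the kinase that drives mitosis, fell after IA by 0.87, and Plk1, a kinase of centrosome maturation and mitotic exit, by 1.29. Aurka, the centrosomal Aurora kinase, fell by 0.99 and Nek2, which separates the centrosomes, by 1.30, the largest fall of the role. Foxm1, the transcription factor of the G2/M programme, fell by 1.18 after IA, by 0.94 after MetSA and by 0.47 after MA. Ccnb2, the second B-type cyclin, fell by 1.17 after IA and gave no call after MetSA (-0.36, adjusted p = 0.160) or MA (0.01, adjusted p = 0.987). Melk and Cdca3 fell after IA by 1.12 and 1.16.

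The spindle checkpoint holds anaphase back until all chromosomes are attached, by keeping CDC20 away from the anaphase-promoting complex. After IA 6 of the 7 members with a role in this checkpoint or in anaphase were lower and 1 was higher. The counts were the same after MetSA, and 2 were lower after MA. The medians were -1.26, -0.62 and -0.29. Of all genes, 17.3%, 8.53% and 10.1% were called lower after IA, MetSA and MA, and 17.9%, 12.6% and 10.1% higher. With 1 library left out the count of lower members stayed at 6 after IA, ran from 3 (without M replicate 1) to 6 after MetSA and from 0 (without M replicate 1) to 4 after MA.

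Cdc20 (chr4:118432901-118437352, ENSMUSG00000006398), the activator of the anaphase-promoting complex, showed the largest fall of all 49 members. It was at 11.9, 11.4 and 12.6 CPM in M and at 2.88, 4.44 and 3.46 CPM after IA. It was at 10.2, 8.45 and 8.99 CPM after MA and at 6.30, 6.36 and 7.98 CPM after MetSA. The 4 groups did not overlap. Its log2 fold change was -1.73 (SE 0.15, adjusted p = 2.68e-08) after IA, -0.80 (SE 0.14, adjusted p = 0.000355) after MetSA and -0.38 (SE 0.14, adjusted p = 0.0677) after MA.

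Pttg1 (securin, chr11:43420250-43426251, ENSMUSG00000020415), the inhibitor of separase that the anaphase-promoting complex destroys, went the other way. It was at 9.85, 11.2 and 13.9 CPM in M and at 9.95, 11.7 and 11.6 CPM after MA. It was at 24.6, 26.7 and 27.3 CPM after IA and at 25.8, 20.9 and 19.4 CPM after MetSA. IA and MetSA libraries all lay above the M and MA libraries, and M and MA overlapped. Pttg1 rose after IA by 1.17 on the log2 scale (SE 0.12, adjusted p = 4.90e-07) and after MetSA by 0.92 (SE 0.12, adjusted p = 1.88e-05), and its value after MA was -0.07 (SE 0.12, adjusted p = 0.753).

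Ube2c, the ubiquitin-conjugating enzyme of the anaphase-promoting complex, fell by 1.30 after IA, and Bub1 and Ttk, kinases of the checkpoint, fell by 1.26 each. Bub1b (BUBR1) fell by 0.84 and Mad2l1 (MAD2), which binds CDC20, by 0.68, the smallest fall of the role after IA.

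The chromosomal passenger complex, the kinase Aurora B with 3 partners that corrects faulty attachments and later guides cytokinesis, had 4 of 4 members lower after IA (median -0.98), 4 after MA (-0.36) and 3 after MetSA (-0.52). Among all genes 17.3%, 10.1% and 8.53% were called lower after IA, MA and MetSA. With 1 library left out the IA count stayed at 4. The MA count then fell as low as 0 (without MA replicate 1) and the MetSA count as low as 2 (without M replicate 1).

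Birc5 (survivin, chr11:117849251-117855743, ENSMUSG00000017716) was at 10.8, 10.52 and 10.7 CPM in M and at 2.85, 4.54 and 4.26 CPM after IA. It was at 6.69, 7.11 and 8.41 CPM after MA and at 6.16, 6.74 and 6.81 CPM after MetSA. IA libraries were the lowest and M libraries the highest, with MA and MetSA overlapping in between. On the log2 scale it differed from M by -1.46 (SE 0.15, adjusted p = 2.92e-07) after IA, -0.70 (SE 0.14, adjusted p = 0.00145) after MetSA and -0.53 (SE 0.14, adjusted p = 0.0121) after MA. The MA call was lost without MA replicate 1 (-0.46) and without MA replicate 2 (-0.50).

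Cdca8 (borealin, chr4:124918465-124939311, ENSMUSG00000028873) was at 15.3, 15.9 and 15.1 CPM in M and at 8.71, 7.61 and 7.34 CPM after IA. It was at 11.9, 12.3 and 12.4 CPM after MA and at 9.04, 9.74 and 10.9 CPM after MetSA, so that none of the 4 groups overlapped. The fold change on the log2 scale was -0.97 (SE 0.10, adjusted p = 4.06e-07) after IA, -0.64 (SE 0.10, adjusted p = 9.51e-05) after MetSA and -0.34 (SE 0.10, adjusted p = 0.0209) after MA. The MA call was lost without M replicate 2 (-0.32) and without MA replicate 1 (-0.32), 2 (-0.34) or 3 (-0.35). Aurkb fell after IA by 0.99. Incenp, the scaffold of the complex, moved little: it fell by 0.27 (SE 0.08) after IA, the smallest of the 46 falls.

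At the centromere and kinetochore, where microtubules attach, 6 of 6 members were lower after IA (median -0.87). After MetSA 3 were lower (median -0.40) and after MA 1 (median -0.20). The shares of all genes called lower were 17.3% after IA, 8.53% after MetSA and 10.1% after MA. Without 1 library the counts were 6 after IA in every case, from 1 (without MetSA replicate 1) to 3 after MetSA and from 0 (without M replicate 1) to 2 after MA.

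Cenpa (chr5:30666777-30674830, ENSMUSG00000029177) encodes the histone H3 variant that marks centromeres. It was at 40.4, 38.9 and 50.8 CPM in M and at 16.3, 21.6 and 18.1 CPM after IA. It was at 33.6, 41.9 and 39.6 CPM after MA and at 27.4, 29.7 and 35.1 CPM after MetSA. The MA libraries overlapped with M, and the IA libraries lay below all others. Against M the log2 fold change was -1.22 (SE 0.13, adjusted p = 4.42e-06) after IA, -0.50 (SE 0.13, adjusted p = 0.0125) after MetSA and -0.18 (SE 0.13, adjusted p = 0.395) after MA. The MetSA call was lost without MetSA replicate 1 (-0.42) and without MetSA replicate 2 (-0.48).

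Nuf2 (chr1:169497934-169531464, ENSMUSG00000026683), a subunit of the NDC80 complex that binds microtubules, was at 11.1, 8.82 and 10.2 CPM in M and at 5.17, 5.59 and 4.89 CPM after IA. It was at 8.37, 7.29 and 7.77 CPM after MA and at 7.70, 6.997 and 9.52 CPM after MetSA. Only the IA libraries stood clear of all others. Its log2 fold change was -0.94 (SE 0.14, adjusted p = 1.60e-05) after IA, -0.36 (SE 0.13, adjusted p = 0.0569) after MA and -0.32 (SE 0.13, adjusted p = 0.0969) after MetSA. Its partners Ndc80 and Spc25 fell after IA by 0.66 and 0.80. Cenpf, a large protein of the outer kinetochore, fell by 1.39 and the kinesin Cenpe by 0.54, and Cenpe after MA stood at 0.01 (adjusted p = 0.963).

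Among the spindle motors and microtubule-binding proteins 8 of 9 members were lower after IA (median -1.11), 8 after MetSA (-0.60) and 4 after MA (-0.42). In the same order, 17.3%, 8.53% and 10.1% of all genes were called lower. Leaving out 1 library kept the IA count at 8, and gave 6 (without MetSA replicate 2) to 8 after MetSA and 2 (without M replicate 1) to 6 after MA.

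Stmn1 (stathmin, chr4:134468320-134473843, ENSMUSG00000028832), a protein that destabilises microtubules, had the smallest adjusted p of the members against M. It was at 63.0, 56.0 and 62.5 CPM in M and at 19.7, 24.6 and 20.8 CPM after IA. It was at 47.8, 40.9 and 46.6 CPM after MA and at 34.6, 31.3 and 36.7 CPM after MetSA. The 4 groups were separate, in the order M, MA, MetSA and IA. On the log2 scale it differed from M by -1.48 (SE 0.09, adjusted p = 2.18e-10) after IA, -0.82 (SE 0.09, adjusted p = 1.11e-06) after MetSA and -0.42 (SE 0.09, adjusted p = 0.00146) after MA.

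Nusap1 (chr2:119618298-119651244, ENSMUSG00000027306), which bundles spindle microtubules near chromosomes, was at 15.9, 16.2 and 16.9 CPM in M and at 5.54, 8.23 and 7.30 CPM after IA. It was at 13.6, 12.0 and 13.4 CPM after MA and at 11.3, 9.07 and 12.0 CPM after MetSA. IA was the lowest group without overlap, and MA and MetSA overlapped. The fold change on the log2 scale was -1.22 (SE 0.13, adjusted p = 5.35e-07) after IA, -0.60 (SE 0.13, adjusted p = 0.00189) after MetSA and -0.33 (SE 0.13, adjusted p = 0.0743) after MA. Kif2c, a kinesin that takes microtubules apart, fell by 1.25 after IA and by 0.92 after MetSA. Kif4 and Kif22, kinesins that bind chromosomes, fell after IA by 1.11 and 1.12, Hmmr by 1.08 and Tacc3 by 0.78. Kif11, the motor that pushes the spindle poles apart, fell by only 0.28 after IA (SE 0.08), 0.24 after MA and 0.28 after MetSA.

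Tpx2 (chr2:152847964-152895321, ENSMUSG00000027469), which activates Aurora A on the spindle, gave no call against M without a replicate block. It was at 15.2, 25.6 and 23.0 CPM in M and at 12.2, 25.3 and 20.2 CPM after IA. It was at 9.73, 16.2 and 17.9 CPM after MA and at 12.2, 21.2 and 18.7 CPM after MetSA. Replicate 1 was the lowest library in every group, and all groups overlapped. Against M the log2 fold change was -0.15 (SE 0.35, adjusted p = 0.790) after IA, -0.54 (SE 0.35, adjusted p = 0.355) after MA and -0.29 (SE 0.35, adjusted p = 0.629) after MetSA, and the IA value turned to 0.01 without M replicate 2 and to 0.10 without IA replicate 1. In a fit blocked on replicate, Tpx2 was called lower after MA (-0.55, adjusted p = 0.000113) and MetSA (-0.30, adjusted p = 0.022) but not after IA (-0.17, adjusted p = 0.166).

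Of the genes of condensin and chromosome structure, 6 of 7 were lower after IA (median -1.008), 5 after MetSA (-0.58) and 3 after MA (-0.33). Over all genes the shares called lower were 17.3%, 8.53% and 10.1%. With 1 library left out the counts were 6 to 7 after IA, 3 (without M replicate 1) to 6 after MetSA and 2 (without M replicate 1) to 4 after MA.

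Top2a (topoisomerase II alpha, chr11:98992943-99024189, ENSMUSG00000020914), which untangles sister chromatids, was at 125.8, 117.5 and 104.8 CPM in M and at 58.3, 59.8 and 51.9 CPM after IA. It was at 93.3, 82.9 and 88.1 CPM after MA and at 77.9, 73.2 and 82.5 CPM after MetSA. The groups ran M, MA, MetSA and IA with no overlap, though the lowest MA library lay just above the highest MetSA library. Its log2 fold change was -1.03 (SE 0.08, adjusted p = 3.42e-09) after IA, -0.58 (SE 0.08, adjusted p = 1.31e-05) after MetSA and -0.40 (SE 0.08, adjusted p = 0.000702) after MA.

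Ncapd2 (chr6:125168007-125191701, ENSMUSG00000038252), a subunit of condensin I, was at 46.6, 41.3 and 41.7 CPM in M and at 23.2, 24.0 and 17.2 CPM after IA. It was at 34.6, 34.5 and 34.1 CPM after MA and at 28.8, 28.8 and 25 CPM after MetSA. All 4 groups were separate. On the log2 scale it differed from M by -1.008 (SE 0.10, adjusted p = 2.92e-07) after IA, -0.65 (SE 0.10, adjusted p = 8.78e-05) after MetSA and -0.33 (SE 0.10, adjusted p = 0.0243) after MA, a call lost without M replicate 1 (-0.27) and without MA replicate 1, 2 or 3 (-0.33, -0.33 and -0.32).

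The other subunits of condensin I, Ncapg and Ncaph, fell after IA by 1.24 and 0.74, and Mki67, the Ki-67 protein that coats mitotic chromosomes, fell by 1.05. Smc2 and Smc4 are the ATPases that both condensin complexes share. Smc2 fell by 0.64 after IA. Smc4 (chr3:69004738-69034623, ENSMUSG00000034349) was at 101.7, 110.4 and 113.3 CPM in M, at 96.7, 97.8 and 98.03 CPM after IA, at 86.0, 84.3 and 93.6 CPM after MA and at 103.6, 98.9 and 106.2 CPM after MetSA. Its lowest values were those of MA. The fold change on the log2 scale was -0.30 (SE 0.06, adjusted p = 0.00124) after MA, -0.15 (SE 0.06, adjusted p = 0.0586) after IA and -0.08 (SE 0.06, adjusted p = 0.434) after MetSA, and the IA value passed the test with upper-quartile scaling (-0.24), with library totals (-0.34), without M replicate 1 (-0.20) and without MetSA replicate 3 (-0.15).

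All 6 genes of the spindle midzone and cytokinesis were lower after IA (median -1.11) and after MetSA (-0.59), and 4 were lower after MA (-0.39). Lower calls after IA, MetSA and MA were given to 17.3%, 8.53% and 10.1% of all genes. The IA and MetSA counts stayed at 6 with any 1 library left out, and the MA count ran from 3 to 4.

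Racgap1 (chr15:99620496-99651656, ENSMUSG00000023015) and Kif23 form centralspindlin, which places the cleavage furrow. Racgap1 was at 30.3, 26.8 and 32.7 CPM in M and at 10.8, 12.3 and 12.4 CPM after IA. It was at 23.9, 21.8 and 23.4 CPM after MA and at 18.7, 16.7 and 22.4 CPM after MetSA. IA libraries were the lowest and M libraries the highest without overlap. Against M the log2 fold change was -1.34 (SE 0.11, adjusted p = 8.27e-09) after IA, -0.63 (SE 0.10, adjusted p = 0.000134) after MetSA and -0.38 (SE 0.10, adjusted p = 0.0124) after MA. The MA call was lost without M replicate 3 (-0.31) and without MA replicate 2 (-0.34). Kif23 fell by 0.82 after IA, by 0.71 after MA and by 0.48 after MetSA, and it had the largest fall of the 49 members after MA.

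Prc1 (chr7:80294450-80316259, ENSMUSG00000038943), which crosslinks the antiparallel microtubules of the midzone, was at 21.7, 19.9 and 20.5 CPM in M and at 8.01, 10.8 and 8.33 CPM after IA. It was at 18.1, 16.7 and 17.7 CPM after MA and at 11.9, 13.1 and 14.5 CPM after MetSA. The 4 groups did not overlap. Its log2 fold change was -1.20 (SE 0.11, adjusted p = 6.36e-08) after IA, -0.66 (SE 0.11, adjusted p = 0.00014) after MetSA and -0.24 (SE 0.11, adjusted p = 0.123) after MA. Kif20a, a kinesin of the midzone, fell after IA by 1.08, Anln (anillin, of the contractile ring) by 1.14 and Ect2, the activator of RhoA at the furrow, by 0.79.

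**Figure D4:**
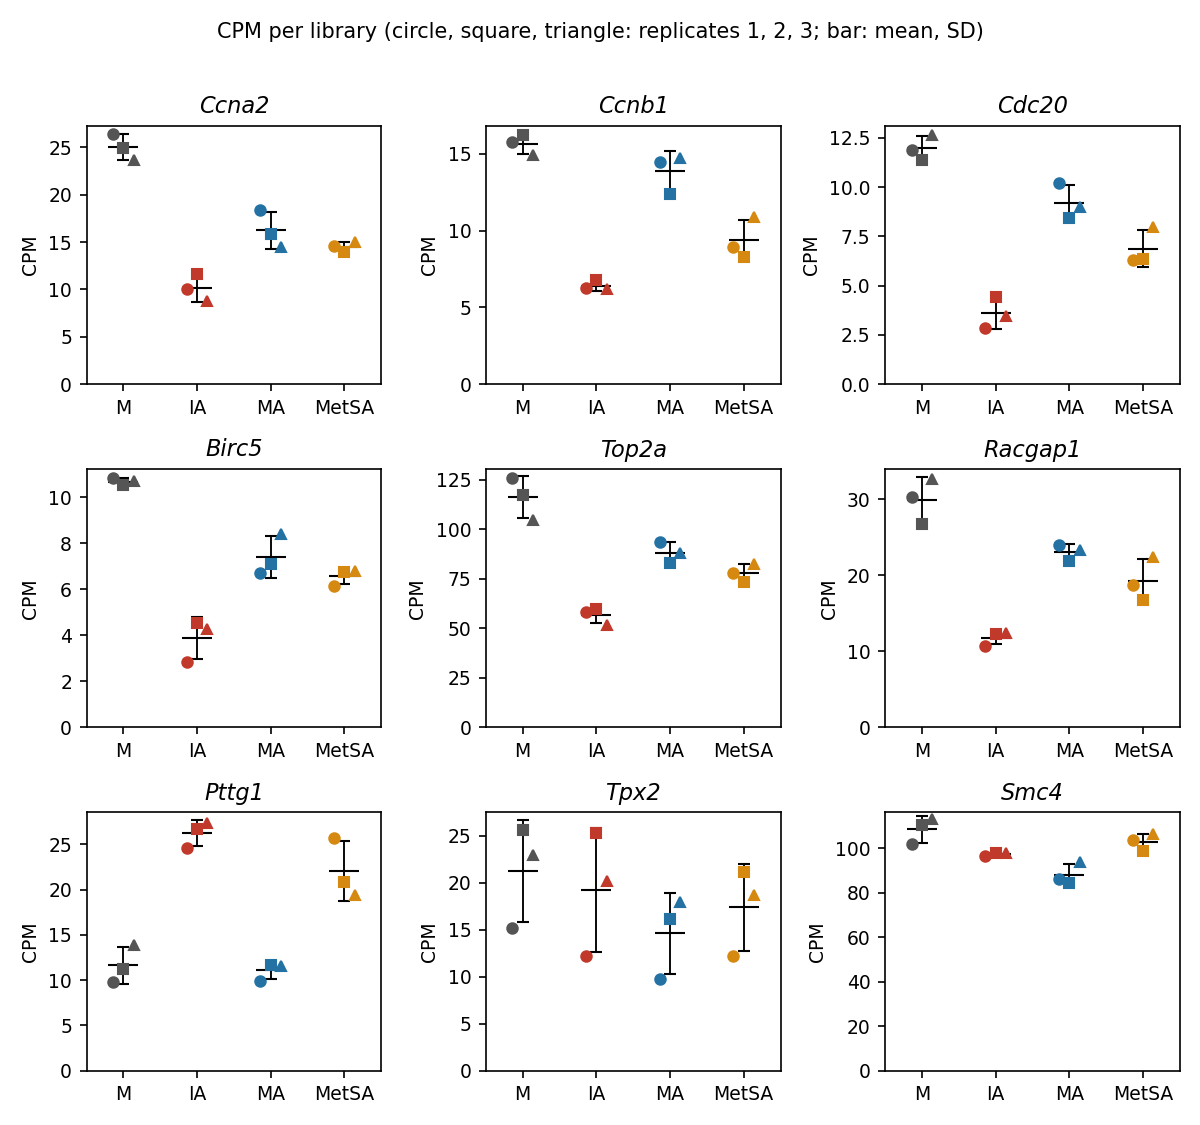
CPM of 9 members in each library, 3 points per group (M, IA, MA, MetSA; markers tell replicates apart, lines give the mean and SD). Cdc20 and Top2a show 4 separate groups with IA lowest, Pttg1 is highest after IA and MetSA, and Tpx2 has its lowest library, replicate 1, in every group.

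The acids were also compared with each other at the same dose and time, in 3 pairs. IA against MetSA is the comparison of a double bond with its absence. In it 26 of 49 members were lower after IA, where 2.15% of all tested genes were lower, and the median was -0.49 against -0.02 over all genes. No member was called higher by edgeR, DESeq2 or limma-voom, and 1 was higher at an unadjusted p under 0.05, where 3.97% of all genes were called higher. A difference of 1.5-fold or more was called in 16 members and in 0.631% of all genes. In 34 members the IA values lay below the MetSA values without overlap, against 12.0% of all genes. The count fell to 14 without IA replicate 1, 15 without IA replicate 3, 16 without MetSA replicate 3 and 16 when only these 2 groups were fitted.

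The members called lower after IA than after MetSA in each alternative run were 10: Ccnb1, Plk1, Nek2, Cdca3, Cdc20, Birc5, Cenpa, Stmn1, Top2a and Racgap1. Cdc20 had the largest difference, -0.94 on the log2 scale (SE 0.15, adjusted p = 0.00112), with 2.88 to 4.44 CPM after IA and 6.30 to 7.98 CPM after MetSA. Stmn1 differed by -0.66 (SE 0.09, adjusted p = 0.000359) and Racgap1 by -0.71 (SE 0.11, adjusted p = 0.00075). For Pttg1 the difference was 0.25 (SE 0.12, adjusted p = 0.245, 95% interval 0.001 to 0.50). For Kif11 it was -0.004 (95% interval -0.17 to 0.16) and for Incenp -0.10 (95% interval -0.26 to 0.06).

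IA against MA separated most of the set: 41 members were lower after IA (16.8% of all genes) and 1, Pttg1, was higher (17.8% of all genes), with a median of -0.68 against -0.04 over all genes. At 1.5-fold or more 31 members were called lower, and 6.82% of all genes were. The IA values lay below the MA values without overlap in 41 members, against 25.7% of all genes. Cdc20 differed by -1.36 (SE 0.15, adjusted p = 5.66e-07), Cenpf by -1.31 (SE 0.22, adjusted p = 0.000655) and Ccnb2 by -1.18 (SE 0.18, adjusted p = 3.36e-05). Pttg1 was higher after IA by 1.24 (SE 0.12, adjusted p = 1.71e-07). Kif23 (-0.11, 95% interval -0.30 to 0.08) and Kif11 (-0.04, 95% interval -0.21 to 0.13) gave no call.

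MA against MetSA gave the fewest member calls of the 3 pairs. Here 14 members were higher after MA (11.6% of all genes) and 2, Pttg1 and Smc4, were lower (14.7% of all genes), with a median of 0.19. At least 1.5-fold lower after MA were 1 member, Pttg1, and 6.99% of all genes. The values did not overlap in 18 members with MA above (18.5% of all genes) and 3 with MA below (20.3%). The count of 14 fell to 8 without MA replicate 1, MA replicate 3, MetSA replicate 1 or MetSA replicate 2. Ccnb1 (0.56, SE 0.11, adjusted p = 0.000647), Foxm1 (0.47, SE 0.12, adjusted p = 0.00596), Bub1b, Cenpe, Kif2c, Stmn1 and Prc1 were called higher after MA in each alternative run, and Pttg1 lower (-0.99, SE 0.12, adjusted p = 4.11e-06).

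**Figure D5:**
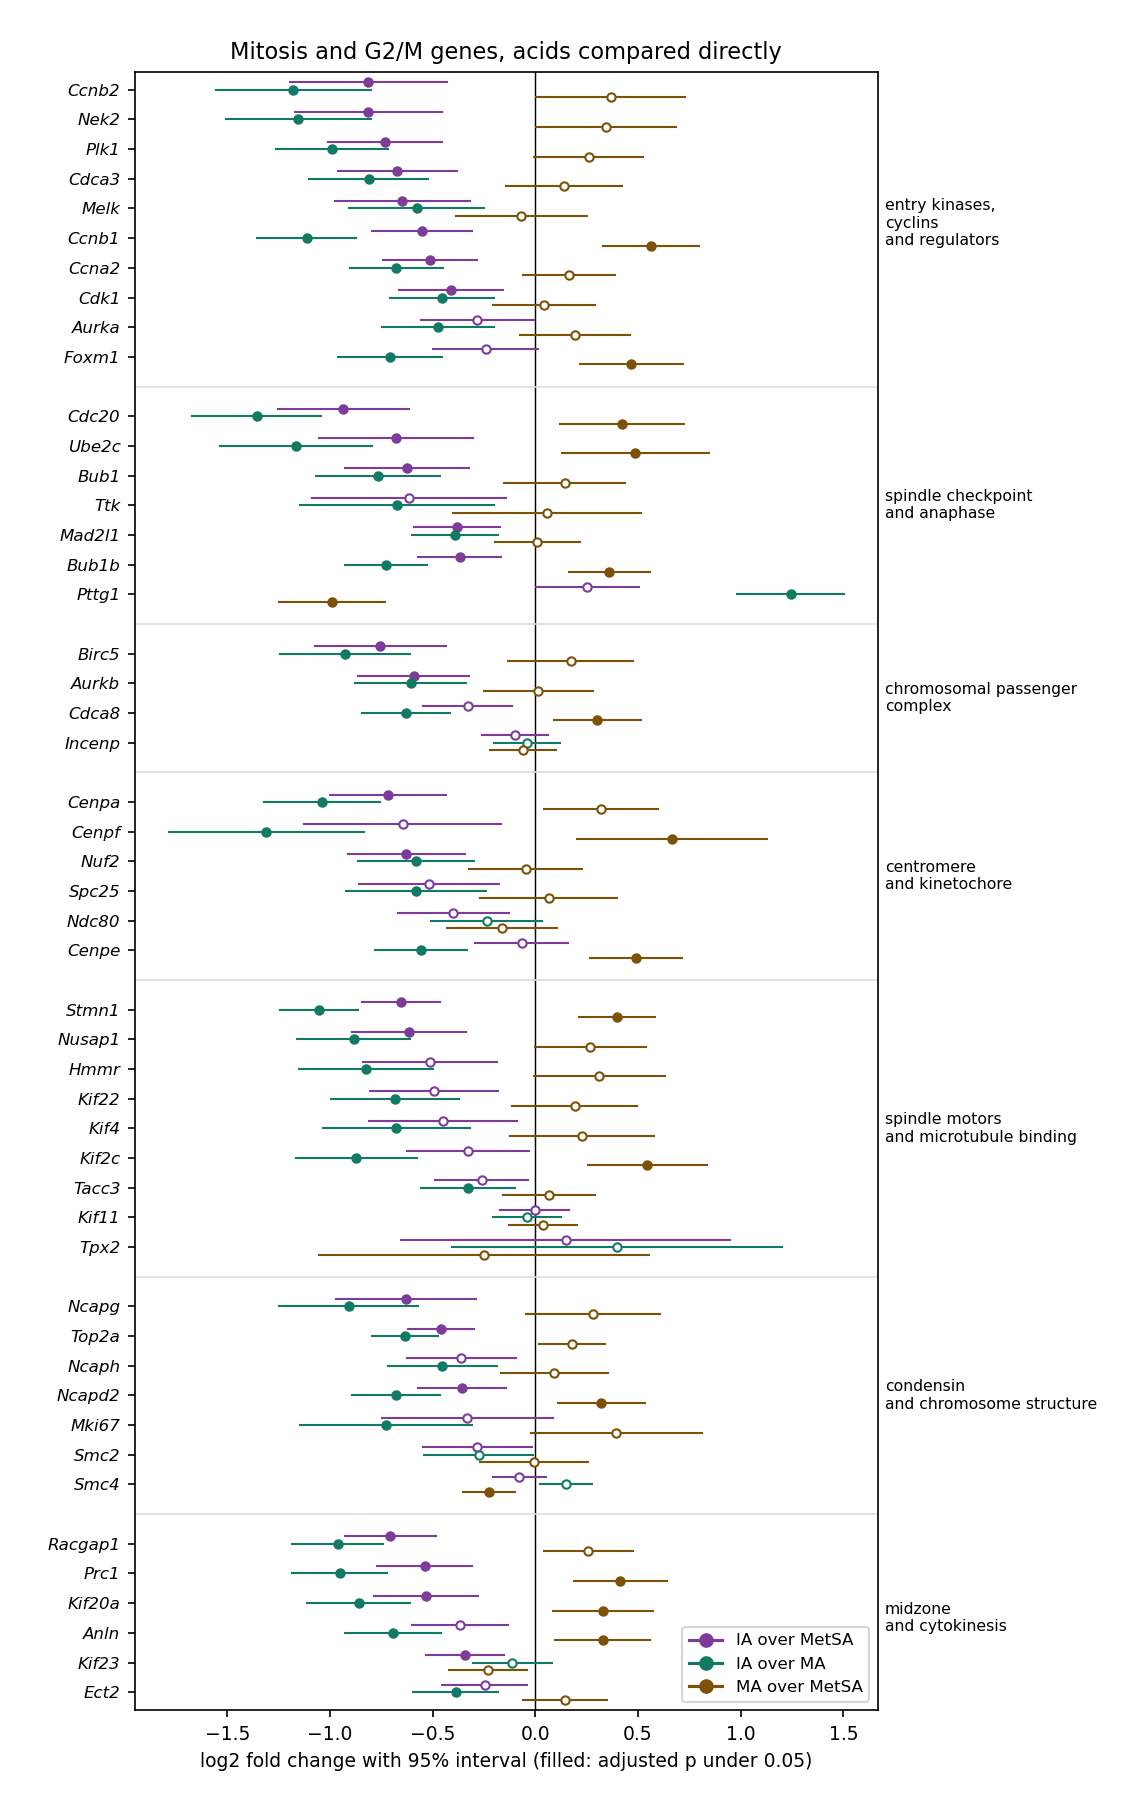
log2 fold change of each of the 49 members between acids (IA over MetSA, IA over MA, MA over MetSA), with 95% intervals from the edgeR fit on 3 libraries per group; filled points passed an adjusted p of 0.05. Most IA over MA and IA over MetSA points lie below 0 and MA over MetSA points near or above 0, with Pttg1 reversed for MA.

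A list of 82 other mitosis genes moved in the same order as the members. After IA 64 of 82 were lower and 2 higher (median -0.80), where 17.3% and 17.9% of all genes were. After MetSA 38 were lower and 2 higher (median -0.41), where 8.53% and 12.6% of all genes were. After MA 16 were lower and 1 higher (median -0.28), where 10.1% of all genes were called in each direction. The lowest counts with 1 library left out were 55 after IA (without IA replicate 3), 24 after MetSA (without MetSA replicate 2) and 10 after MA (without M replicate 1). Lmnb1 (lamin B1 of the nuclear envelope) fell by 1.03 after IA, by 0.65 after MetSA and by 0.39 after MA. Ckap2l, a spindle protein, fell by 1.30 after IA and 0.65 after MetSA, and the tubulin gene Tubb5 fell by 0.64, 0.40 and 0.41 after IA, MA and MetSA.

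Ncapg2, a subunit of condensin II, was called against the median of this list. The other condensin II subunits, named after their values were seen, did not rise: after IA Ncapd3 fell by 0.40 (adjusted p = 0.00092) and Ncaph2 by 0.24 (adjusted p = 0.0041). It was at 68.0, 70.8 and 64.5 CPM in M, at 242.5, 199.2 and 216.5 CPM after IA, at 154.0, 138.5 and 148.5 CPM after MA and at 157.5, 133.8 and 133.9 CPM after MetSA. All acid libraries lay above all M libraries, and IA above the rest. Ncapg2 rose by 1.70 on the log2 scale after IA (SE 0.08, adjusted p = 8.04e-12), by 1.12 after MA (SE 0.08, adjusted p = 2.82e-09) and by 1.06 after MetSA (SE 0.08, adjusted p = 9.04e-09). Wapl, which releases cohesin, rose by 0.24 after IA (adjusted p = 0.00526), a call lost when libraries were scaled by their totals (0.06).

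The 15 core genes of the anaphase-promoting complex, whose products CDC20 and UBE2C serve, did not share the fall. After IA 4 were lower and 2 higher (17.3% and 17.9% of all genes), with a median of -0.12. After MA 2 were lower (10.1% of all genes), and after MetSA 3 were lower and 1 higher (8.53% and 12.6%). With 1 library left out the lower count went down to 2 after IA (without IA replicate 3), to 0 after MA (without M replicate 3) and to 0 after MetSA (without M replicate 3). Anapc5 rose by 0.73 after IA (SE 0.07, adjusted p = 6.43e-08) and by 0.49 after MetSA (SE 0.07, adjusted p = 1.94e-05). Anapc11 fell by 0.41 after IA (SE 0.08, adjusted p = 0.000253).

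The S phase genes, which copy DNA and make its precursors, gave another order. Of 44, 32 were lower after IA (median -0.53), 31 after MA (-0.55) and 24 after MetSA (-0.36). Of all genes, 17.3%, 10.1% and 8.53% were called lower after IA, MA and MetSA, and 17.9%, 10.1% and 12.6% higher. None of the 44 were higher after any acid by edgeR, DESeq2, limma-voom or an unadjusted p under 0.05. The lowest counts with 1 library left out were 27 after IA (without M replicate 1), 25 after MA (without MA replicate 2) and 17 after MetSA (without M replicate 1). In the direct comparison of IA with MA, the 49 members had a median of -0.68 and 41 calls below. The S phase genes had a median of -0.05 with 6 lower and 3 higher, where 16.8% of all genes were lower and 17.8% higher. The 6 became 2 without IA replicate 1. Relative to M, the mean of the S phase genes was -0.61, -0.45 and -0.64 in the IA libraries, -0.41, -0.66 and -0.50 in the MA libraries and -0.35, -0.49 and -0.28 in the MetSA libraries.

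Mcm5, of the replicative helicase, showed this in single values: 96.4, 78.9 and 76.5 CPM in M, 45.2, 50.6 and 38.8 CPM after IA, 44.8, 40.8 and 46.1 CPM after MA and 59.4, 52.4 and 54.5 CPM after MetSA. It fell by 0.90 after IA (SE 0.10, adjusted p = 1.72e-06) and by 0.94 after MA (SE 0.10, adjusted p = 2.08e-06), and IA and MA differed by 0.03 (adjusted p = 0.837, 95% interval -0.18 to 0.24). Uhrf1, which carries DNA methylation through replication, fell by 1.19 after IA and 0.98 after MA, Tk1 (thymidine kinase) by 1.09 and 0.71, and the checkpoint adaptor Clspn by 1.20 and 0.63.

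Among 20 regulators of the RB, E2F, DREAM and B-Myb families 8 were lower and 2 higher after IA (17.3% and 17.9% of all genes). After MA 5 were lower and 3 higher (10.1% of all genes in each direction), and after MetSA 6 were lower (8.53%). With 1 library left out the higher count ran from 1 (without M replicate 1) to 2 after IA and from 1 (without M replicate 3) to 3 after MA. Mybl2, the B-Myb gene, was at 13.9, 10.2 and 9.86 CPM in M, 3.85, 4.56 and 3.29 CPM after IA, 6.17, 5.41 and 4.73 CPM after MA and 6.67, 5.46 and 6.38 CPM after MetSA. It fell by 1.53 after IA (SE 0.16, adjusted p = 4.10e-07), by 1.06 after MA (SE 0.16, adjusted p = 5.31e-05) and by 0.87 after MetSA (SE 0.16, adjusted p = 0.000369). E2f7, a repressor of the family, fell by 1.33, 1.008 and 0.95 after IA, MA and MetSA. E2f2, an activator, rose by 1.04 after MA (SE 0.09, adjusted p = 9.04e-08) and by 0.29 after IA (SE 0.095, adjusted p = 0.0248). Rbl1, of the RB family, rose by 0.34 after IA (SE 0.08, adjusted p = 0.00254) and fell by 0.33 after MA (SE 0.08, adjusted p = 0.0052).

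Several members share sequence or exons with other genes, and the strand setting of the counting was not stated in the labels, so part of their reads may belong elsewhere. The share of stretches of 100 bases found in another gene was 21.4% for Kif20a (with Cdc23), 14.9% for Ccnb1 (with Ccnb1-ps), 13.3% for Kif4 (with Pdzd11), 12.8% for Stmn1 (with Gm11223), 10.2% for Ncapg (with Lcorl) and 10.1% for Ccna2 (with Exosc9). Exons of Ube2c overlap those of Tnnc2 over 22.8% of their length, and Tnnc2 had a median of 0 counts. Other overlaps, all with a gene on the opposite strand, held more counts: Kif20a shares 29.3% of its exon length with Cdc23 (medians of 594 and 1462 counts), Kif4 15.1% with Pdzd11 (337 and 823), Ncapg 13.4% with Lcorl (379 and 1771) and Ccna2 12.5% with Exosc9 (761 and 1191).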

How the data were processed

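Polyadenylated RNA of 4 groups of 3 macrophage libraries was sequenced. The deposited values are raw gene counts, which the submitters' processing notes link to STAR, featureCounts and mm10; their versions, the strand setting and the annotation are not stated there. Even numbers made up 66.1% of the counts from 1 to 9 but 50.9% of those from 1000 up, and a count of 2 occurred 13032 times while a count of 1 occurred 5652 times, so mates of a pair may have been counted singly; a fit on halved counts was one alternative. Of 32285 genes, 14113 passed filterByExpr and held 99.98% of counts. One edgeR 4.0.16 quasi-likelihood fit (R 4.3.3, robust, TMM) over all 12 libraries gave 6 comparisons, with Benjamini-Hochberg adjustment over all genes tested and calls at an adjusted p under 0.05. CPM use TMM library sizes. The script was tested on simulated counts. Gene coordinates are GENCODE M21 on GRCm38, and promoters are from RefSeq on GRCm38.p6.

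The 49 members and all other lists were chosen with earlier results of these data known. Members given in every library are, in each role, the 2 with the smallest adjusted p for IA against M and any called against the members' median; Tpx2 and Smc4 were added after their values were seen, as the members not called in the members' usual direction after IA that this rule had not named. Of each other list, up to 4 genes with the smallest adjusted p against M and up to 2 called against the list's median were named. Alternatives were DESeq2 1.42.0, limma-voom (limma 3.58.1), other scalings and filters, a replicate block, fits of 2 groups and each library left out.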

Additional observations from a re-analysis of the deposited data

How the results depend on the processing

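Every alternative run kept the calls of 47 of 47 members after IA, 27 of 41 after MetSA and 10 of 23 after MA relative to M. Between acids it kept 35 of 42 calls (IA with MA), 10 of 26 (IA with MetSA) and 8 of 16 (MA with MetSA). With each library left out in turn, the members called lower numbered 46 to 47 (IA against M, medians -1.15 to -1.01), 11 to 28 (MA against M, -0.37 to -0.33), 27 to 41 (MetSA against M, -0.62 to -0.50), 14 to 28 (IA against MetSA, -0.59 to -0.40) and 36 to 42 (IA against MA, -0.79 to -0.63), and those called higher 8 to 17 (MA against MetSA, 0.17 to 0.28). Fitting only IA and MetSA gave 16. Scaling by library totals gave medians of -1.27 for IA against M, -0.67 for MetSA against M and -0.83 for IA against MA, where the medians of all genes were -0.22, -0.13 and -0.19. Tpx2 after IA ran from -0.39 (without IA replicate 2) to 0.10 (without IA replicate 1) and was 0.01 without M replicate 2. The cause was not tested. Of all calls for IA against M, 50.9% were higher with TMM, 34.8% with upper-quartile scaling and 21.6% with library totals; for MetSA against M these were 59.7%, 42.2% and 29.5%, for IA against MetSA 64.8%, 54.2% and 29.7%, for IA against MA 51.5%, 37.5% and 25.7%, and for MA against MetSA 44.1%, 54.5% and 61.1%. The deviations of same-numbered libraries of different groups passed the level set for pairing, r over 0.1, in 2 of 18 pairs (range 0.01 to 0.17). By this rule the main fit had no replicate block. However, 35 of 36 best matches had the same number, so the rule cannot show that the libraries are unpaired. Whether same-numbered libraries share an origin was not tested, and all main SE and p-values come from the fit without a block. That fit called 46, 23 and 40 members lower for IA, MA and MetSA against M, and 26 for IA against MetSA. With a replicate block the members called lower were 47, 29 and 42 for IA, MA and MetSA against M, 34 for IA against MetSA and 42 for IA against MA, and 17 were higher for MA against MetSA; Tpx2 was then called after MA (-0.55) and MetSA (-0.30).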

Other observations

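Of 15 cyclins, kinases and inhibitors of G1, 7 were lower and 2 higher after IA (17.3% and 17.9% of all genes). After MA 7 were lower (10.1% of all genes), and after MetSA 4 were lower and 2 higher (8.53% and 12.6%). The median log2 fold changes were -0.26, -0.35 and -0.23 after IA, MA and MetSA. Ccnd2 (cyclin D2) was at 38.1, 39.95 and 39.5 CPM in M, at 126.4, 141.0 and 139.8 CPM after IA, at 19.5, 21.7 and 20.7 CPM after MA and at 98.7, 86.3 and 62.6 CPM after MetSA, with no overlap between groups. By edgeR's quasi-likelihood test it rose after IA (log2 fold change 1.79, SE 0.13, adjusted p = 1.32e-07) and fell after MA (-0.93, SE 0.13, adjusted p = 0.000146). Cdkn1a, the p21 inhibitor of cyclin-dependent kinases, rose by 0.82 after IA and 0.60 after MetSA and fell by 0.20 after MA (adjusted p = 0.0398), a call lost without any 1 of the M libraries, any 1 of the IA libraries, MA replicate 1 or 2, or MetSA replicate 2 (-0.22 to -0.15). Myc, a transcription factor of growth, fell by 1.36 after IA, by 0.69 after MA and by 0.88 after MetSA. Ccnd1 (cyclin D1) fell by 1.11 after MA.

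Among DNA damage checkpoint genes, 15 of 16 were tested, and 4 were lower and 5 higher after IA (17.3% and 17.9% of all genes). After MA 5 were lower and 4 higher (10.1% of all genes in each direction), and after MetSA 2 were lower and 4 higher (8.53% and 12.6%). The median log2 fold changes of the list were 0.083, -0.012 and -0.006 after IA, MA and MetSA. Gadd45a, a stress-induced growth arrest gene, fell by 0.99 after IA and by 0.84 after MetSA and rose by 0.68 after MA. Ccng1 and Sesn2 went the other way after IA, rising by 0.50 and 0.60. After MA Sesn2 rose by 0.28 and Chek2 by 0.59.

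Over the 12 libraries, the genes outside the 49 members whose log2 CPM followed the members' mean most closely were Maco1 (Pearson r 0.983), Lrrc32 (0.979), Lmnb1 (0.979) and, among the first 5, mt-Cytb and Qdpr (0.973), a description over libraries that share the 4 groups. Lmnb1, and Ckap2 (0.972) and Spag5 (0.971) further down, are on the list of other mitosis genes. Egr2 (0.972), Dkc1 (0.970) and Psat1 (0.967), also further down, are not on it, nor are Maco1, Lrrc32, mt-Cytb and Qdpr.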
